A study of Saccharomyces cerevisiae with 10 samples.

Results

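The cytosolic ribosomal protein genes of Saccharomyces cerevisiae were taken from the deposited gene table by name, as every gene whose name begins with RPL or RPS and a number, together with RPP0, RPP1A, RPP1B, RPP2A and RPP2B. This gave 137 of 7252 genes, with 76 of the large subunit (RPL), 56 of the small subunit (RPS) and 5 of the P stalk (RPP). Of the 137 genes, 118 formed 59 pairs of an A and a B copy, and 19 had a single copy. All cells came from a prototrophic version of the laboratory strain BY4741 (MATa, derived from S288C) that carried sfGFP, a green fluorescent protein, behind the RPL28 promoter (pRPL28), so both groups hold the reporter. Cells were grown for 4 h in rich YPD medium, washed in PBS and kept for 1 h in NLIM-PRO, a nitrogen-limited glucose medium with 0.8 mM proline. Cell sorting on the fluorescence of the reporter and on side scatter then gave a high and a low subpopulation, with doublets and budding cells gated out, and 5 replicates of each were sequenced as bulk RNA. The low libraries L2_2609 and L1_2709 stood apart and were not used in the paper's comparison, so the main fits used the other 8 libraries (5 high, 3 low), and values from all 10 are given beside them.

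Each ribosome carries a single copy of most of these proteins, and the genes that encode them are among the most coordinately controlled in yeast. The factor Rap1 binds upstream of most of them and recruits Fhl1 and Ifh1, and the kinase complex TORC1 and protein kinase A raise their transcription in rich medium, partly through Sfp1. On a shift to a poor nitrogen source TORC1 activity falls and their mRNAs decrease. Most of the A and B copies are paralogues kept from the ancient duplication of the yeast genome, and the copies of a pair often encode proteins that are identical or nearly so.

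The sequences that bear on the results are the upstream region of RPL28, which also drives the reporter, and those of RPL41 and RPL42, the pairs whose B copies stood among the 3 highest log2 fold changes of the genes tested. Each window covers the 300 bases from 400 to 101 before the start codon in the R64 genome, 5′ to 3′ on the strand of the gene, and capitals mark a match to the Rap1 motif ACCCNTACA on either strand. RPL28 lies on chromosome VII (310967 to 311927, + strand) and its window is chrVII:310567-310866. The RPL41A gene lies on chromosome IV (130407 to 130484, - strand) with its window at chrIV:130585-130884, and the RPL41B gene on chromosome IV (221724 to 221801, - strand) with its window at chrIV:221902-222201. The RPL42A gene lies on chromosome XIV (331322 to 332154, + strand) with its window at chrXIV:330922-331221, and the RPL42B gene on chromosome VIII (381990 to 382751, - strand) with its window at chrVIII:382852-383151.
RPL28: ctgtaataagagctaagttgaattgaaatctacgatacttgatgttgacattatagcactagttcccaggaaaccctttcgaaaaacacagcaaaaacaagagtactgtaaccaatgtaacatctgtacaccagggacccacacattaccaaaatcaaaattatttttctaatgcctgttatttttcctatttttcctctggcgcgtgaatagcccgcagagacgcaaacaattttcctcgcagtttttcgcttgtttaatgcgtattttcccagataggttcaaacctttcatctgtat
RPL41A: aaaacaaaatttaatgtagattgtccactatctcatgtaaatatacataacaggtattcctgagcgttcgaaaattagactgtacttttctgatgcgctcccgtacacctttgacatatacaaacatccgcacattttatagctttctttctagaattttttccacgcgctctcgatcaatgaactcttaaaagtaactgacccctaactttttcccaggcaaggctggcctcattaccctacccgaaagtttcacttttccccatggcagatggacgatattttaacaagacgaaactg
RPL41B: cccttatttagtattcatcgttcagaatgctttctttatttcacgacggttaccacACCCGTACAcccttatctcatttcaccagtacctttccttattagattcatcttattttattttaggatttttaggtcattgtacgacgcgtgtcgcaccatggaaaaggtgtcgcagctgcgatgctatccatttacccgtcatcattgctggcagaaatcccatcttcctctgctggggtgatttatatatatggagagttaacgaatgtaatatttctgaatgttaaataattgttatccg
RPL42A: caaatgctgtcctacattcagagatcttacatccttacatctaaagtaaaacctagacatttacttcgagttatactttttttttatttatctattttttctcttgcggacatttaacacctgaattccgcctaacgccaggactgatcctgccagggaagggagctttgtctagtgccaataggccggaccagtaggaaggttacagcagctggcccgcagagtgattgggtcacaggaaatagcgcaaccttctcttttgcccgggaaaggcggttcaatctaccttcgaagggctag
RPL42B: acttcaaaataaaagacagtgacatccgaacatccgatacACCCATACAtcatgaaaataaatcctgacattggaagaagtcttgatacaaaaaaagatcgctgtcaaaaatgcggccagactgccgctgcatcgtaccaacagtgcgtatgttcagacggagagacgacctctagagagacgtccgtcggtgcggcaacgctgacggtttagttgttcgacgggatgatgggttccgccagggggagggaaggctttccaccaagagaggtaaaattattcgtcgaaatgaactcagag
In both pairs the window of the B copy held the Rap1 motif and that of the A copy did not. Among the other genes of the 5 highest log2 fold changes, RPL33A held the motif and RPS22B and RPS23A did not. Among the 5 lowest, RPL11B and RPS11B held the motif and RPL16B, RPS9A and RPL33B did not. Of all 137 genes, 27 (19.7%) held it, against 79 of 6001 protein-coding genes (1.32%), and the stress response element AGGGG was found in 26 (19.0%) of the 137 against 23.5% of all, on either strand and with no overlap between the motifs required. A match is a description of the letters in this window, and its absence says nothing about binding.

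The coding sequences of the RPL41 pair are shown because its copies are almost the same there. They encode a very short basic protein of the large subunit and differ at 1 of 78 positions, given in capitals, as C9T, with the base of RPL41A first and positions counted from 1 at the start codon.
RPL41A: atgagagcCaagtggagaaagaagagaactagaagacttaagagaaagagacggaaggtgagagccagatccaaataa
RPL41B: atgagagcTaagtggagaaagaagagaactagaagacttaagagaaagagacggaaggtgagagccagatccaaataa
Over the 59 pairs, identity of the coding sequences ranged from 69.2% (RPP1) to 99.4% (RPL1), with a median of 93.2%. Of the 135 genes long enough to hold a stretch of 150 bases, the read length, 12 had under 80% of such stretches found only once in the genome. Among these are both copies of RPL35, RPL11, RPL4, RPS6 and RPL1, for which the split of reads between copies is uncertain. RPL41 could not be scored, since it is shorter than a read.

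The libraries held 15879779 to 27752702 counts. Between 983 and 1552 genes had a count of 0 in the low libraries, against 383 to 511 in the high libraries, and 28 to 47 genes had 1 to 9 counts in low against 275 to 345 in high. How many molecules these counts stand for was not tested here, and PCR copies of a molecule were not marked, so the intervals and limits given below cover counting error only. All 16 of 16 marker genes of cells in G2 and M were called lower in low in the 8 libraries, against 0.832% of all genes called higher and 4.33% called lower, with a summed level of 1743 to 2392 CPM (counts scaled to library size with TMM factors) in high and 259 to 534 over all 5 low libraries, and CLB2, a mitotic cyclin, was at 0 in L2_2609 and L2_2709. Among 11 markers of daughter cells, 4 passed the test as higher and 1 as lower in low. Their summed level was 1040 to 1629 CPM in high and 1897 to 3445 over all 5 low libraries. With all 10 libraries the counts called were 16 lower for the first list and 3 higher and 1 lower for the second (0.706% of all genes higher, 2.84% lower). The part of these cell types in the results that follow was not tested.

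Ribosomal protein transcripts took up a small and very uneven share of the RNA in both subpopulations. In high they made up 0.702% of counts in H1_2609, 2.23% in H2_2609, 1.65% in H1_2709, 1.54% in H2_2709 and 0.692% in H_2909. In low the share was 1.05% in L1_2609, 1.24% in L2_2709 and 1.39% in L_2909, and 1.78% and 1.68% in L2_2609 and L1_2709. All 5 low values lay inside the range of the high values. The mean was 1.36% ± 0.66 (SD, n = 5) in the high subpopulation and 1.23% ± 0.17 (SD, n = 3) in the low one, or 1.43% ± 0.30 (SD, n = 5) with all low libraries, so the groups differed by far less than the 3.18-fold gap between the high libraries H2_2609 and H1_2609. In bulk RNA, fewer cells of a type and less RNA per cell cannot be told apart.

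**Figure D1:**
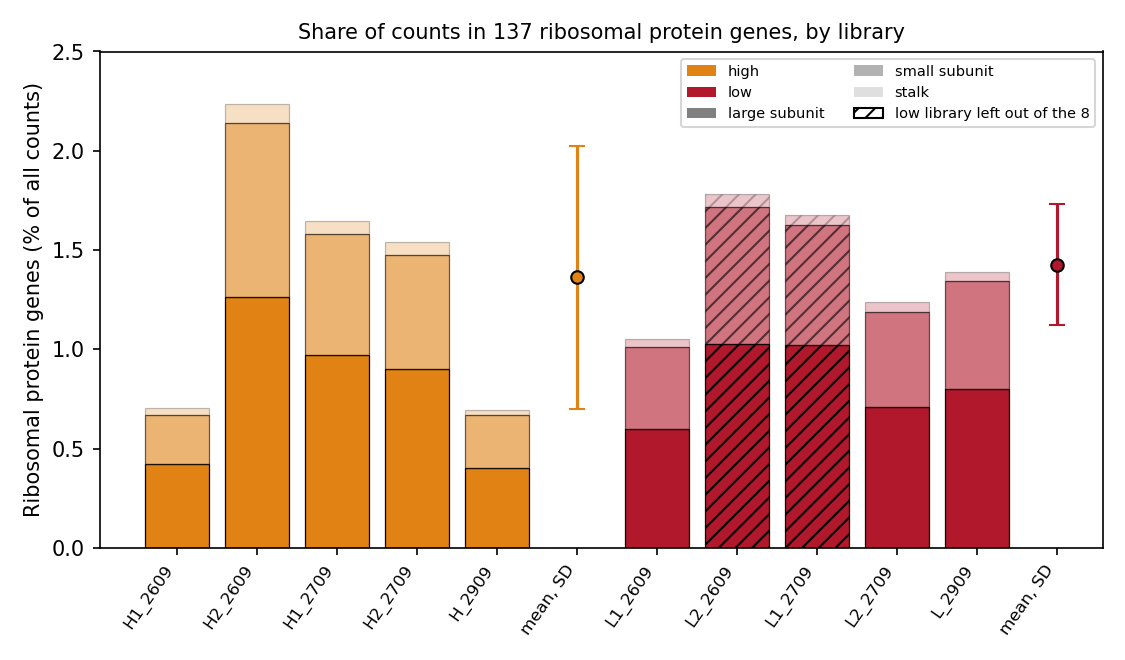
Share of all counts (y axis, %) in the 137 ribosomal protein genes for each library, stacked by large subunit, small subunit and stalk, with the mean and SD of 5 libraries beside each group and hatching for the low libraries not used in the 8. The high libraries spread from 0.692% to 2.23% and the low ones from 1.05% to 1.78%.

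Libraries whose titles share an ending did not give 1 direction. With the ending of H1_2609 the mean share was 1.47% in high and 1.05% in the low library of the 8 (1.42% over both low), and with that of H1_2709 it was 1.59% in high and 1.24% in low (1.46% over both). With the ending of H_2909, which has 1 library of each, the share was 0.692% in high and 1.39% in low. The mean of low was thus below that of high in both endings with 2 libraries of each and above it in the third. In the first ending L1_2609, at 1.05%, lay between H1_2609, at 0.702%, and H2_2609, at 2.23%. Between libraries whose titles differ only in H or L, low minus high was 0.348 points for L1_2609, 0.0265 for L1_2709 and 0.698 for L_2909. The difference was -0.453 points for L2_2609 and -0.303 for L2_2709, so these matched titles did not give 1 direction either.

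In the main fit, which has no replicate term, no ribosomal protein gene passed the test of low against high in the 8 libraries. Of 135 genes with enough counts to be tested, 0 had an adjusted p under 0.05, here termed called (quasi-likelihood test of edgeR, p-values adjusted by Benjamini-Hochberg over all 6492 genes), against 0.832% of all genes called higher and 4.33% called lower in low. At an unadjusted p under 0.05 there were 5, or 3.70% of those tested, against 17.6% of all genes, and all 5 were higher in low. DESeq2 called 2, both higher in low (2.67% of all genes were called higher and 7.21% lower), and limma on log2(FPKM + 1) called 1, also higher (1.02% and 4.7%). In all 10 libraries 0 were called again (0.706% of all genes higher, 2.84% lower) and 4 had an unadjusted p under 0.05 (15.2% of all genes). The titles hold a replicate code shared by a high and a low library. With this code as a block term edgeR called 2 in the 8 libraries, against 18 genes higher and 79 lower over all 6492. In that fit H2_2609 and H1_2709 have no low partner of their code and add nothing to the fold changes. In all 10 libraries the block also called 2, against 73 higher and 175 lower over all 6374. The standard errors show what could be seen: their median was 0.41 on the log2 scale over these genes and 0.22 over all genes.

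The median log2 fold change, low over high, of the 135 genes was -0.09, with quartiles of -0.28 and 0.08, against -0.02 for all genes tested. Of the 135, 48 lay above 0 and 87 below. In all 10 libraries the median was 0.07, with 89 above 0 and 46 below, against -0.02 for all genes. Leaving out 1 library moved it from -0.25 (without H1_2609) to 0.18 (without H2_2609), and limma on log2(FPKM + 1) gave 0.05 in the 8 libraries. With the replicate code as a block term it was 0.45 in the 8 libraries, with 119 above 0 and 16 below, against -0.06 for all genes. This value leaves H2_2609, the high library with the largest ribosomal protein share, and H1_2709 without weight, since neither has a low partner of its code among the 8. In all 10 libraries the block gave 0.16, with 103 above 0 and 32 below, against -0.07 for all genes. The sign and size thus changed with the libraries and the model used.

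Large and small subunit genes lay close together. The 74 large subunit genes had a median log2 fold change of -0.13 (23 above 0), the 56 small subunit genes of -0.02 (24 above 0) and the 5 stalk genes of -0.32 (1 above 0). In all 10 libraries these medians were 0.08, 0.07 and -0.17. The counts of the large subunit genes divided by those of the small subunit genes gave 1.55 ± 0.10 (SD, n = 5) in the high subpopulation and 1.46 ± 0.015 (SD, n = 3) in the low one, or 1.51 ± 0.10 (SD, n = 5) with all low libraries. L1_2709, at 1.69, and H1_2609, at 1.70, were the highest of their groups.

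The 18 single-copy genes tested had a median log2 fold change of -0.25 (5 above 0), the 58 A copies of -0.02 (26 above 0) and the 59 B copies of -0.12 (17 above 0). In all 10 libraries the medians were 0.01, 0.09 and 0.07. Per length, the 19 single-copy genes stood higher than the paired genes, at a median of 331 FPKM (fragments scaled to gene length and library size, mean over 10 libraries) against 151 FPKM.

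**Figure D2:**
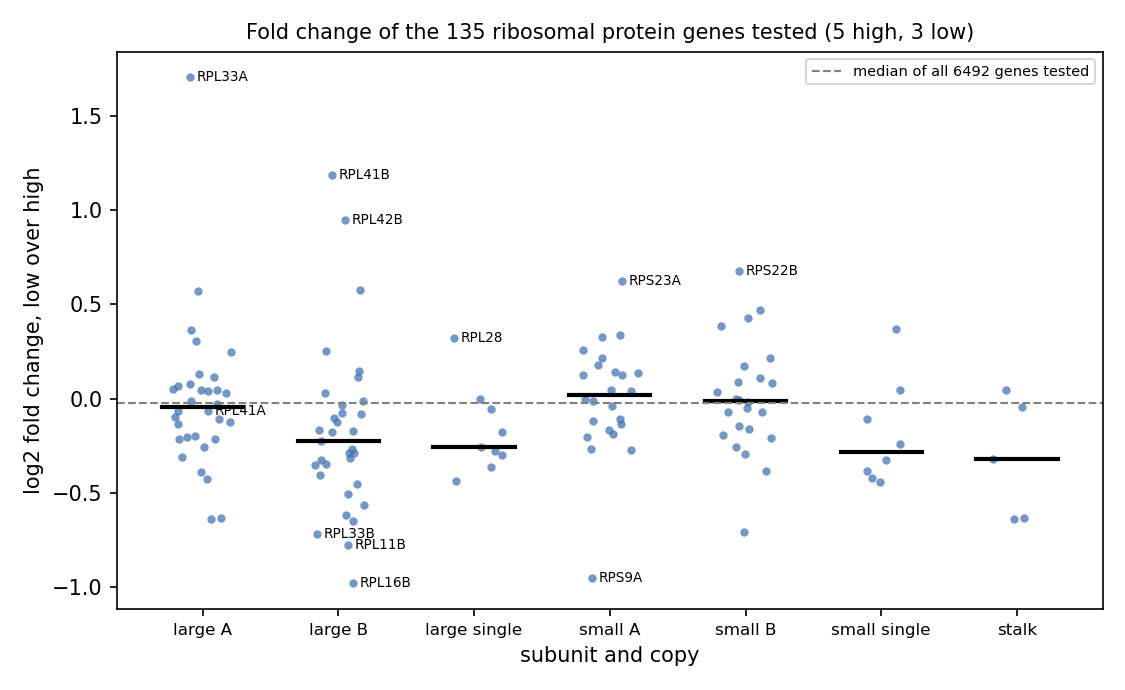
Log2 fold change, low over high (y axis), of the 135 ribosomal protein genes tested in 5 high and 3 low libraries, by subunit and copy (x axis), 1 point per gene with a bar at the median of each class and a dashed line at the median of all 6492 genes. Most points lie within 0.5 of 0, RPL33A at 1.71, RPL41B at 1.19 and RPL42B at 0.95 lie highest and RPL16B at -0.98 lowest.

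RPL28 encodes uL15 of the large subunit and lends its promoter to the sorting reporter. Its own transcript was counted at 9.02 CPM in H1_2609, 11.2 in H2_2609, 11.7 in H1_2709, 8.94 in H2_2709 and 4.06 in H_2909. In low it stood at 8.22 CPM in L1_2609, 4.89 in L2_2709 and 20.3 in L_2909, and at 14.3 and 17.0 in L2_2609 and L1_2709. The groups overlapped, and L_2909 was the highest of all and H_2909 the lowest. The log2 fold change was 0.32 (standard error, SE, 0.51, adjusted p = 0.82, edgeR), 0.53 (adjusted p = 0.70) in all 10 libraries and -0.45 without L_2909. An annotated gene on the opposite strand, YGL102C, overlaps 89.1% of the coding bases of RPL28, and whether counting used strand is not given in the sources used here, so reads of the pair of genes cannot be told apart.

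The sfGFP transcript made from the RPL28 promoter is listed as a gene of its own and varied over the libraries much as the ribosomal protein genes did. It was at 105 CPM in H1_2609, 341 in H2_2609, 209 in H1_2709, 171 in H2_2709 and 69.2 in H_2909. In low it was at 121 CPM in L1_2609, 158 in L2_2709, 201 in L_2909, 292 in L2_2609 and 188 in L1_2709. Like the share of ribosomal protein counts, it was lowest in H_2909 and H1_2609 and highest in H2_2609. Across the 10 libraries, which include both groups and share the scaling, its log2 CPM correlated with the median of the well counted ribosomal protein genes at r = 0.93, and RPL28 at r = 0.59. The log2 fold change of sfGFP was -0.16 (SE 0.44, adjusted p = 0.90, edgeR) in the 8 libraries and 0.10 (adjusted p = 0.95) in all 10.

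RPL33A, which encodes eL33 of the large subunit, had the highest fold change but few counts. It was at 2.07 CPM in H1_2609, 1.99 in H2_2609, 1.32 in H1_2709, 2.24 in H2_2709 and 2.84 in H_2909, and at 3.52 in L1_2609, 6.85 in L2_2709 and 10.1 in L_2909. All 3 low values lay above all 5 high values, but of the other low libraries L2_2609 was at 5.51 CPM and L1_2709 had 0 counts, which allows up to 0.189 CPM before scaling (3 counts). RPL33A had a log2 fold change of 1.71 (SE 0.51, adjusted p = 0.10, edgeR) and 1.32 (adjusted p = 0.63) in all 10 libraries. DESeq2 called it in the 8 libraries (adjusted p = 0.0065), as did limma on log2(FPKM + 1) (adjusted p = 0.046), and edgeR called it without L1_2609 (log2 fold change 2.02, adjusted p = 0.037). The opposite-strand gene YPL142C overlaps 88.0% of its coding bases.

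RPL41B stood higher in low in most libraries. It was at 66.4 CPM in H1_2609, 91.95 in H2_2609, 141 in H1_2709, 151 in H2_2709 and 94.3 in H_2909. In low it was at 118 CPM in L1_2609, 303 in L2_2709 and 322 in L_2909, and at 183 and 708 in L2_2609 and L1_2709. Only L1_2609 fell inside the range of the high libraries. The log2 fold change was 1.19 (SE 0.34, adjusted p = 0.087, edgeR) in the 8 libraries and 1.59 (adjusted p = 0.057) in all 10, so it missed the threshold in both of these fits, and without L1_2609 it passed (log2 fold change 1.52, adjusted p = 0.024). DESeq2 called it in the 8 libraries, with an adjusted p of 0.015. With the replicate code as a block term edgeR called it in the 8 libraries (log2 fold change 1.20, adjusted p = 0.046) and in all 10 (1.39, adjusted p = 0.0082).

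RPL41A, the partner with the same coding sequence save 1 base, had a fold change near 0. It was at 179, 227, 249, 299 and 265 CPM in H1_2609, H2_2609, H1_2709, H2_2709 and H_2909. In low it was at 177 CPM in L1_2609, 266 in L2_2709 and 255 in L_2909, and at 260 and 278 in L2_2609 and L1_2709. The groups overlapped throughout, and the log2 fold change was -0.07 (SE 0.19, adjusted p = 0.91, edgeR), and 0.02 in all 10 libraries.

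RPL42B encodes eL42 of the large subunit. Its values were 45.1 CPM in H1_2609, 111 in H2_2609, 86.9 in H1_2709, 88.7 in H2_2709 and 49.0 in H_2909, against 89.4 in L1_2609, 215 in L2_2709 and 135 in L_2909, and 209 and 423 in L2_2609 and L1_2709. Apart from L1_2609, all low libraries lay above all high ones. It had a log2 fold change of 0.95 (SE 0.34, adjusted p = 0.18, edgeR) in the 8 libraries and 1.49 (adjusted p = 0.055) in all 10. With the replicate code as a block term edgeR called it in the 8 libraries (log2 fold change 1.24, adjusted p = 0.019) and in all 10 (1.38, adjusted p = 0.0051).

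RPS22B, a gene of the small subunit with a partner RPS22A, was the only ribosomal protein gene of which every low library lay above every high library both in the 8 and in all 10. It was at 13.3 CPM in H1_2609, 16.9 in H2_2609, 13.9 in H1_2709, 14.8 in H2_2709 and 13.3 in H_2909. In low it was at 18.1 CPM in L1_2609, 18.2 in L2_2709 and 32.9 in L_2909, and at 35.4 and 34.1 in L2_2609 and L1_2709. The high libraries were very alike and the low ones fell into a lower and a higher set. Its log2 fold change was 0.68 (SE 0.26, adjusted p = 0.21, edgeR) and 0.94 (adjusted p = 0.11) in all 10.

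Groups that did not overlap were rare among these genes. In the 8 libraries 3 genes (RPL33A, RPS22B and RPS7B, a gene for eS7) had every low library above every high one, against 4.78% of all genes tested, and 0 had every low library below, against 10.7%. In all 10 libraries the counts were 1 and 0, against 1.84% and 5.62%. RPS7B was named after its values were seen, with a log2 fold change of 0.47 (SE 0.20, adjusted p = 0.25, edgeR) in the 8 libraries and 0.56 (adjusted p = 0.16) in all 10.

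RPS23A, one of the genes for uS12, completed the 5 highest log2 fold changes, at 0.62 (SE 0.35, adjusted p = 0.41, edgeR), and had 0.57 (adjusted p = 0.38) in all 10 libraries. The high libraries ranged from 59.3 to 240 CPM and the 3 low ones from 213 to 243, so the groups overlapped. At the lower end stood RPL16B (uL13), at -0.98 (SE 0.51), RPS9A (uS4), at -0.95 (1.14), RPL11B (uL5), at -0.78 (0.61), and RPL33B, at -0.72 (1.12). Their adjusted p-values ranged from 0.36 to 0.82. RPL16B was at 38.3, 156, 103, 104 and 27.1 CPM in H1_2609, H2_2609, H1_2709, H2_2709 and H_2909 and at 38.3, 39.99 and 51.4 in L1_2609, L2_2709 and L_2909. These low values lay within the high range, toward its lower end, and with L2_2609 at 115 and L1_2709 at 86.7 the fold change was -0.37. RPS9A and RPL33B each had 0 counts in L2_2709, and in all 10 libraries their log2 fold changes were 0.38 and 0.24, opposite in sign, while that of RPL11B was -0.10.

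The stalk genes encode the acidic proteins that recruit elongation factors, with RPP0 (uL10) as the base that binds the ribosome. RPP0 was at 82.3, 194, 149, 158 and 39.2 CPM in H1_2609, H2_2609, H1_2709, H2_2709 and H_2909, and at 112, 152 and 120.5 in L1_2609, L2_2709 and L_2909. Its log2 fold change was 0.05 (SE 0.42). Those of the P1 and P2 proteins were -0.63 (0.40) for RPP1A, -0.04 (0.36) for RPP1B, -0.32 (0.39) for RPP2A and -0.64 (0.43) for RPP2B, with adjusted p-values of 0.47 to 0.98. With the further low libraries RPP0 was at 0.06 and the other 4 between -0.35 and -0.15. All 5 overlapped between the groups and were highest in H2_2609 among the high libraries.

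Levels per length differed widely between genes. RPL41A and RPL41B, at 3110 and 2763 FPKM (means over 10 libraries), and RPS30A, at 659 FPKM, were the 3 highest, and the median of the 137 genes was 164 FPKM, against 42.3 FPKM for the 6962 genes listed above 0. The FPKM of RPL41 divides by a coding length of 78 bases, which is under the read length of 150. RPS30A encodes the small subunit protein eS30, made as a fusion with a ubiquitin-like domain in animals. Its log2 fold change was 0.14 (SE 0.25) in the 8 libraries and 0.22 in all 10.

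At the other end stood genes whose coding bases are overlapped by another annotated gene. A total of 16 genes had such an overlap, and 6 of them over more than 80% of their coding bases: RPL43A (99.3%), RPL22A (96.7%), RPL39 (96.2%), RPL36B (93.7%), RPL28 (89.1%) and RPL33A (88.0%), all by a gene on the opposite strand. Their median level was 9.97 FPKM, against 183 FPKM for the 121 genes with no overlap and 132 FPKM for the 10 with a smaller overlap. The 6 overlapping partners were themselves low, with mean levels of 0.124 to 3.30 CPM. The part of the overlap in these low counts was not tested.

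**Figure D3:**
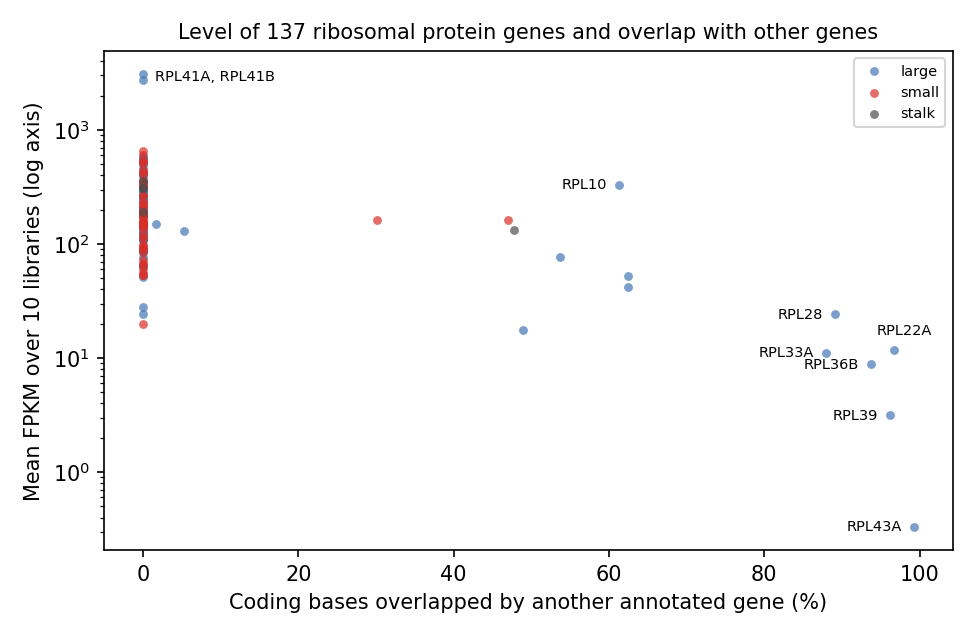
Mean FPKM over 10 libraries (y axis, log axis) against the share of coding bases overlapped by another annotated gene (x axis, %), 1 point per gene, coloured by subunit. The 6 genes overlapped by more than 80% lie at or below 24.1 FPKM, and RPL41A and RPL41B lie at 3110 and 2763 FPKM.

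A total of 7 genes had fewer than 10 counts in some library. RPL43A had 0 counts in 6 libraries and RPL39 in 4, where 0 counts allow up to 0.108 to 0.189 CPM before scaling (3 counts), and both were removed by the filter on low counts before the edgeR test. DESeq2, run without that filter, called neither (adjusted p = 0.40 and 0.31). RPL22A (eL22) had none in L1_2609 and L2_2709 but stood at 24.9 CPM in L1_2709, and without L_2909, which leaves 2 low libraries at 0, edgeR called it lower in low (adjusted p = 0.015). RPL36B (eL36) had none in L1_2709 and L2_2709. RPL33A, RPL33B and RPS9A had none in 1 low library each. All 3 of RPL22A, RPL33B and RPS9A thus ranged from 0 to over 20 CPM within low.

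The copies of a pair shared their counts unevenly, and the split varied between libraries. Averaged over 10 libraries, A was the larger copy in 36 of 59 pairs and B in 23, with a median A share of 55.7%. In 31 pairs the same copy was larger in all 10 libraries, A in 23 and B in 8. The shares farthest from even were those of RPL43 (A 0.227%), RPL7 (A 93.9%) and RPL36 (A 93.1%), whose minor copies RPL43A, RPL7B and RPL36B are overlapped by opposite-strand genes over 99.3%, 49.0% and 93.7% of their coding bases. The A share of a pair ranged over a median of 25.7 percentage points across libraries, and its SD was a median of 5.33 points in high (n = 5) and 7.21 in low (n = 5). For a single library, the 95% Wilson interval of a share reached a median of 1.53 points to either side and at most 5.83.

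RPL41 was the one pair whose A share did not overlap between the groups in the 8 libraries and in all 10. Copy A held 73.0% of the counts in H1_2609, 71.2% in H2_2609, 63.9% in H1_2709, 66.5% in H2_2709 and 73.7% in H_2909. In low it held 59.9% in L1_2609, 46.7% in L2_2709 and 44.2% in L_2909, and 58.7% and 28.2% in L2_2609 and L1_2709. Every low value lay below every high value. The mean was 69.7% ± 4.28 (SD, n = 5) in the high subpopulation and 50.3% ± 8.43 (SD, n = 3) in the low one, a difference of -19.4 points (exact permutation test, two-sided, p = 0.036, adjusted p = 0.53 over 59 pairs), and -22.1 points in all 10 (exact p = 0.0079, adjusted p = 0.23). Both p-values are the smallest that 8 and 10 libraries allow, and after adjustment over 59 pairs the threshold could be passed only if 43 and 10 pairs reached them. Inside the coding sequence only the 1 differing base tells the copies apart. A read of 150 bases is longer than these 78 bases and runs into flanking sequence, which was not compared here. How reads that match both copies were counted is not given in the sources used here.

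RPL16 was the other pair without overlap in the 8 libraries. Its A share was 45.5%, 47.5%, 44.2%, 39.5% and 54.8% in H1_2609, H2_2609, H1_2709, H2_2709 and H_2909, and 60.4%, 68.4% and 63.1% in L1_2609, L2_2709 and L_2909. The means were 46.3% ± 5.61 (SD, n = 5) and 63.97% ± 4.09 (SD, n = 3), a difference of 17.7 points (exact permutation test, p = 0.036, adjusted p = 0.53). L2_2609, at 50.6%, fell inside the high range and L1_2709, at 65.2%, above it, and in all 10 libraries the difference was 15.3 points (exact p = 0.016, adjusted p = 0.23).

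The A share of RPS10 stood higher in low with overlap, and RPL33 rested on few counts. For RPS10 (eS10) it was 46.0% ± 6.40 (SD, n = 5) in the high subpopulation and 58.9% ± 12.0 (SD, n = 3) in the low one, with an exact permutation p = 0.071 (adjusted p = 0.53), and the difference in all 10 libraries was 13.7 points (exact p = 0.048, adjusted p = 0.35). For RPL33 the difference of 38.4 points (exact p = 0.071, adjusted p = 0.53) rested on L2_2709, where all 143 counts were of copy A, which allows a B share of up to 2.10%, while in L1_2709 all 270 were of copy B, which allows an A share of up to 1.11%. Without L2_2709 the difference of RPL33 was 15.5 points, and in all 10 libraries 18.8 points (exact p = 0.39).

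RPL42 was looked at because of RPL42B, after its values were seen. Copy A held 34.9%, 47.4%, 44.5%, 39.2% and 42.5% in H1_2609, H2_2609, H1_2709, H2_2709 and H_2909, and 29.9%, 20.4% and 38.5% in L1_2609, L2_2709 and L_2909, with 25.2% and 15.01% in L2_2609 and L1_2709. L_2909 alone lay inside the high range. The difference was -12.1 points in the 8 libraries (exact permutation p = 0.071, adjusted p = 0.53) and -15.9 points in all 10 (exact p = 0.016, adjusted p = 0.23). In the 8 libraries 2 of 59 pairs had an unadjusted p under 0.05 and 0 an adjusted one, and in all 10 libraries 8 and 0.

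**Figure D4:**
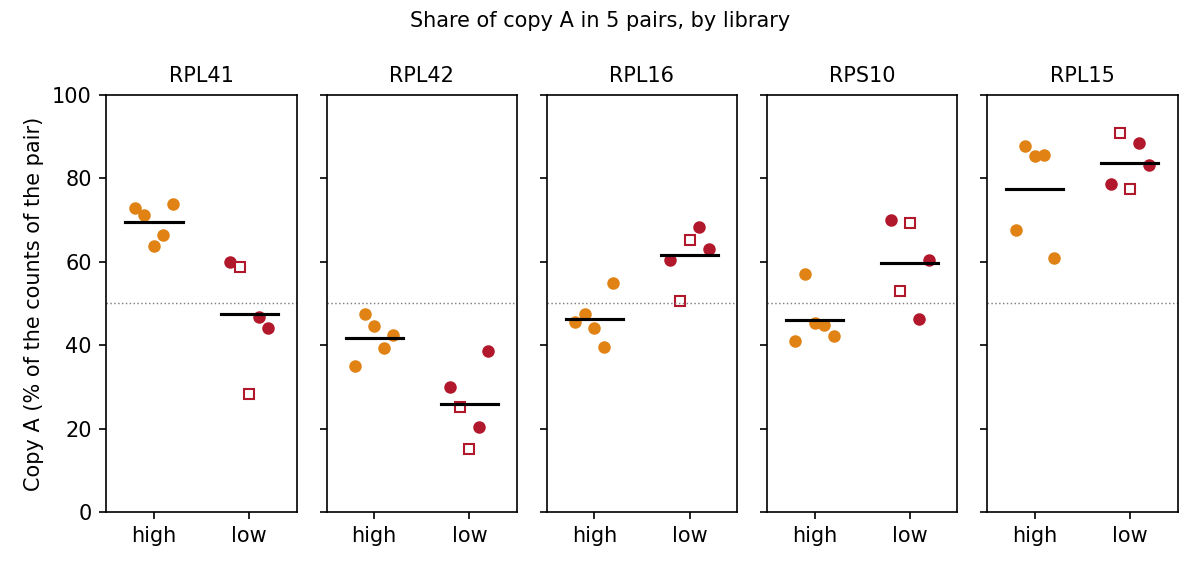
Copy A as a share of the counts of its pair (y axis, %) in 5 pairs, 1 point per library for high and low (x axis), with open squares for the low libraries not used in the 8, a bar at the mean of 5 libraries and a dotted line at 50%. The high and low points of RPL41 do not overlap, those of RPL42 overlap by 1 low library, and RPL15 spreads most in high, from 60.9% to 87.8%.

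The gap between cultures was shared by nearly all the genes. Of 126 ribosomal protein genes with at least 100 counts in every library, 125 were higher in H2_2609 than in H1_2609, by a median of 3.19-fold, whereas the median over the 5057 genes with as many counts was 0.975-fold. The SD of log2 CPM among the high libraries was a median of 0.79 over the 126 genes and 0.22 over those 5057, and among the 5 low libraries 0.42 and 0.34. Within the high subpopulation the ribosomal protein genes thus spread more between cultures than most genes, and less so in low.

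To describe how far each gene followed this trend, its log2 CPM was regressed on the median of the other well counted ribosomal protein genes over the 10 libraries, which hold both groups. The slope had a median of 1.00 over the 126 genes, with quartiles of 0.72 and 1.17, and 91 genes had a correlation of at least 0.8 with the median. The steepest were RPS26B (eS26), at 1.61, RPS1B (eS1), at 1.60, and RPL21A (eL21), at 1.58. RPS1B ran from 19.95 CPM in H_2909 and 23.0 in H1_2609 to 162 in H2_2609. These genes, like those that follow, were named after their values were seen.

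A slope under 0.5 was found for 9 genes: RPL15B (-0.15), RPL41A (0.19), RPS29A (0.22), RPL9B (0.36), RPS25B (0.39), RPS21A (0.43), RPL18B (0.45), RPS7B (0.48) and RPS22B (0.50). Each of these is a copy of a pair, as are 118 of all 137 genes. RPL15B (eL15) was the only well counted gene lower in H2_2609 than in H1_2609. It was at 69.7 CPM in H1_2609, 59.99 in H2_2609, 73.0 in H1_2709, 63.6 in H2_2709 and 82.8 in H_2909, whereas its partner RPL15A ran through 145, 433, 428, 377 and 129 CPM in the same libraries. In the high libraries RPL15A thus moved with the other genes and RPL15B stayed nearly level. In low RPL15B was at 61.9 CPM in L1_2609, 46.2 in L2_2709 and 56.3 in L_2909, and at 41.0 and 119 in L2_2609 and L1_2709, a wider range than in high. Its log2 fold change was -0.35 (SE 0.16, adjusted p = 0.31, edgeR) in the 8 libraries and -0.11 in all 10. The A share of RPL15 followed, from 60.9% in H_2909 and 67.5% in H1_2609 to 87.8% in H2_2609.

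**Figure D5:**
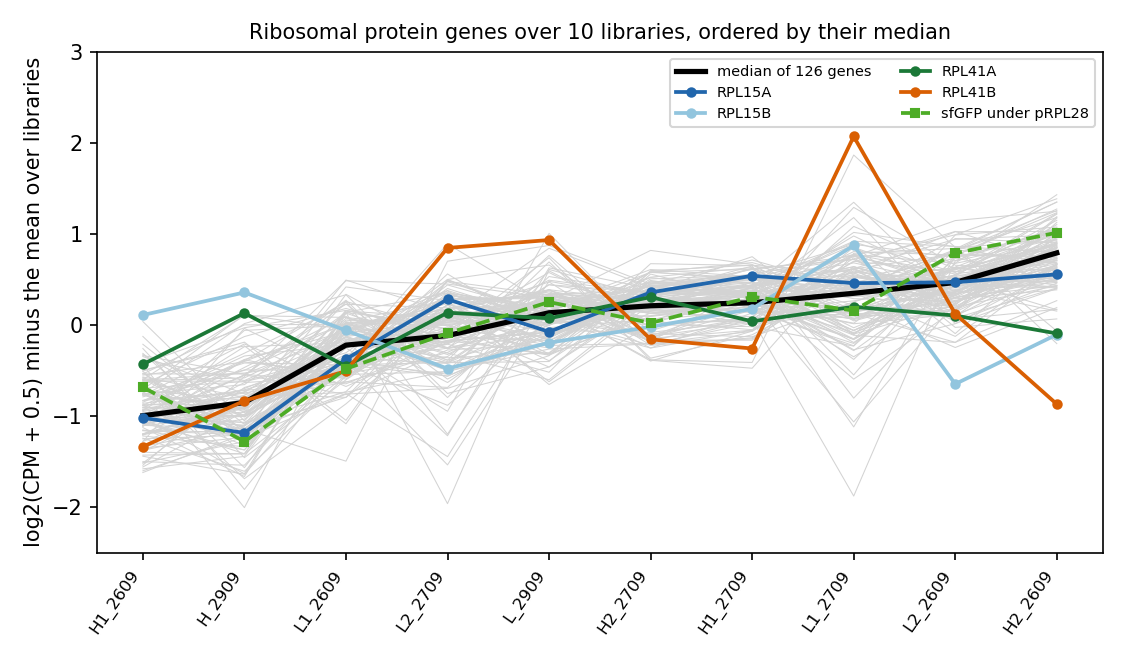
Log2(CPM + 0.5) of each of 126 well counted ribosomal protein genes (grey lines) and of their median (black), as the difference from the mean of each over 10 libraries (y axis), with the libraries ordered by that median (x axis). RPL15A and sfGFP rise with the median, RPL41A runs only from 177 to 299 CPM, RPL15B is nearly level in the high libraries but spreads from 41.0 to 119 CPM in low, and RPL41B peaks in L1_2709, L_2909 and L2_2709.

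None of the genes listed as acting on or with these proteins was called, against 0.832% of all genes called higher and 4.33% called lower, and 17.6% of all genes had an unadjusted p under 0.05. Of 23 regulators of ribosomal protein genes (RAP1, FHL1, IFH1, SFP1, TORC1 and protein kinase A subunits among them) 0 were called in the 8 libraries by edgeR, with a median log2 fold change of 0.02 and 1 at an unadjusted p under 0.05. Of 17 chaperones and importers of ribosomal proteins 0 were called (median -0.06, 1 at an unadjusted p under 0.05), and of 12 elongation factors and stalk partners tested (of 13 listed) 0 were called (median 0.05, 1 at an unadjusted p under 0.05). The fit of edgeR to all 10 libraries called 0 in each list, and DESeq2 in the 8 libraries also called 0 in all 3. The summed CPM of the chaperones and importers was 829 in H_2909, 1014 in H1_2609, 1630 in H1_2709, 1706 in H2_2709 and 2131 in H2_2609. The order of these high libraries was nearly that of the ribosomal protein genes. The elongation factors and stalk partners had the same order, from 4046 CPM in H_2909 to 8057 in H2_2609. The regulators stayed between 4857 and 6102 CPM in high. In low the order of the chaperones and importers differed from that of the ribosomal protein genes. Their sum was lowest in L_2909 (1318 CPM) and highest in L2_2609 (2247), whereas the ribosomal protein share was lowest in L1_2609.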

How the data were processed

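RNA of sorted high and low cells, 5 libraries of each, was selected for poly(A) and sequenced as paired reads of 150 bases. The authors mapped the reads with HISAT2, and raw read counts for each gene were deposited by them together with FPKM values, which divide counts by gene length and library total. The counting tool and its use of strand are not given in the sources used here. Gene coordinates of all 137 genes equal those of the R64 annotation.

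Counts of the 8 libraries used in the paper were filtered with filterByExpr, TMM-normalized and tested with edgeR 4.0.16 (quasi-likelihood, Benjamini-Hochberg over 6492 genes, threshold 0.05) in R 4.3.3. CPM used TMM factors over all 10 libraries. The A share of each pair with at least 100 counts in every library (all 59) was compared with a two-sided exact permutation test (scipy 1.17.1). P-values measure the spread between the replicate cultures the series describes. edgeR estimated a biological coefficient of variation of 0.355 from 8 libraries and of 0.458 from 10. Members and gene lists were chosen with earlier results of these data known. Named genes were the 5 highest and 5 lowest fold changes, called genes, RPL28, the stalk genes, the 3 highest FPKM and genes under 10 counts. Named pairs were the 5 largest differences and the 3 least even shares. Some of the genes and pairs that this rule gives are not reported here. Alternatives were all 10 libraries, each library left out, replicate and title-ending blocks, RLE, upper quartile and TMM from the other genes, no filter, DESeq2 1.42.0, and limma 3.58.1 on log2(FPKM + 1) and log2(FPKM + 0.1). Chosen after seeing the data were a setting without H2_2609 and L2_2609, genes with a Rap1 motif, and the slopes. Upstream windows were read from R64 from the start codon, not from mapped transcript starts. The fits were tested on simulated counts. No 2 libraries were duplicates (lowest chi-square 36.4 per degree of freedom). Columns of samples outside the series: 0. The cytometry and single-cell measurements were not used here.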

Additional observations from a re-analysis of the deposited data

Results flagged for a closer look

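In groups of 5 libraries, 64 sets of values were examined for a library set far apart from the other 4, of which chance gives about 1 in 20. This applied to 5. The ratio of large to small subunit counts was 1.69 in L1_2709, against 1.45 to 1.49 in the other low libraries. RPL22A stood at 24.9 CPM in L1_2709, against 0 to 7.21 in the other low libraries. RPL41A was at 177 CPM in L1_2609, against 255 to 278 in the other low libraries. The A share of RPS10 was 57.0% in H2_2609, against 40.9% to 45.3% in the other high libraries. The A share of RPL36 was 90.6% in H1_2609, against 94.9% to 95.9% in the other high libraries.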

How the results depend on the processing

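The count of called ribosomal protein genes was 0 in the 8 libraries and became 2 without L1_2609 (RPL33A and RPL41B), 1 without L_2909 (RPL22A, lower in low), 2 under DESeq2 (RPL33A and RPL41B), 1 under limma on log2(FPKM + 1) or log2(FPKM + 0.1) (RPL33A), and 1 with title ending as a term (RPL41B). RLE, upper quartile, TMM from the other genes, no filter and all 10 libraries left it at 0. Leaving out 1 library gave 0 to 2, and a median log2 fold change of -0.25 to 0.18. The median of large minus small subunit genes, -0.11 in the 8 libraries, was 0.010 in all 10 and -0.18 to -0.08 with 1 library left out. The share of counts, low minus high, was -0.14 points, and ranged from -0.31 to 0.08 with 1 library left out, and was 0.19 over all 10 libraries but H2_2609 and L2_2609. The median log2 fold change was -0.10 for genes with no overlap, -0.08 for those with at least 80% of read-length stretches found once and -0.01 for the 27 with a Rap1 motif, against -0.09. The count of pairs past the threshold was 0 in every setting run, which says nothing about stability, since with 8 libraries 43 of 59 pairs would have to reach the smallest p. The log2 fold change of RPL28 ranged from -0.45 (without L_2909) to 0.68 with 1 library left out, and those of RPL33B and RPS9A to 0.24 and 0.38 in all 10 libraries. Over all genes DESeq2 called 183 higher and 494 lower, against 54 and 281. The cause of these changes was not tested.

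High and low libraries share replicate codes. Deviations from the group means gave correlations of 0.27, 0.099 and 0.29 for the 3 codes held by both groups among the 8 libraries (4373 genes with at least 30 CPM). The second only barely missed the limit of 0.1, so the main fit did not treat the codes as pairs. That fit was also set up as the comparison of 5 high with 3 low libraries without a covariate. Over all 10 libraries the 5 codes gave 0.39, 0.60, 0.11, 0.018 and 0.39, the lowest being that of H2_2709 and L2_2709, as in the 8. Over the 116 ribosomal protein genes alone the values were 0.074, 0.21 and -0.14 in the 8 libraries. In all 10 they were 0.14, 0.54, 0.22, 0.13 and -0.022, in the same order of codes. These values do not decide whether the high and low libraries of a code are pairs. The results with and without the block are therefore both given. With a replicate block 2 ribosomal protein genes were called, RPL41B and RPL42B, both in the 8 libraries (79 genes lower and 18 higher over all) and in all 10 (175 and 73), with adjusted p = 0.046 and 0.019 in the 8 and 0.0082 and 0.0051 in all 10. In the 8 libraries the block compares only the 3 codes held by both groups, so H2_2609 and H1_2709 add nothing to its fold changes. Under the block the median log2 fold change was 0.45 in the 8 libraries, with 119 genes above 0 and 16 below, and 0.16 in all 10, with 103 and 32. At an unadjusted p under 0.05 there were 27 (20%, against 13.3% of all genes) and 17 (12.6%, against 18.9%), all higher in low. Of the A shares, 0 pairs passed in 3 and 5 paired differences, where the smallest possible exact p is 0.25 and 0.062. Depth limits RPL43A, RPL39 and the other genes with 0 counts in a library.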
